A study of Homo sapiens with 12 samples.

Results

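The genes described here are 9 that build the anchor between basal keratinocytes and the basement membrane: ITGA6, ITGB4, COL17A1, CD151, DST, PLEC, LAMA3, LAMB3 and COL7A1. They were found by gene name in 6 lists of acetylated RNA peaks. Of these 9 genes, 8 carried a peak in at least 1 list, out of 10870 genes that had one, and they held 204 of the 61804 peaks listed.

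The lists come from acetylated RNA immunoprecipitation sequencing (acRIP-seq) of HaCaT cells, an established line of immortalised human keratinocytes. The assay pulls down RNA that carries N4-acetylcytidine (ac4C) and sequences the pulled-down fraction (IP) beside the starting RNA (input). Cells received NAT10 overexpression plasmids or an empty vector, with 3 replicates of each and 12 libraries in all, and each replicate gave 1 peak list. NAT10 is the enzyme that writes ac4C on RNA, and the study used the 2 groups to ask which genes differ with it.

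Hemidesmosomes are plaques at the base of keratinocytes. Inside the cell, plakins tie keratin filaments to the membrane, where an integrin pair and a transmembrane collagen reach out to laminin-332, the main adhesion ligand of the epidermal basement membrane. Below it, anchoring fibrils hold the basement membrane to the dermis, and inherited loss of many of these proteins causes blistering of the skin. ac4C lies on cytidines of messenger RNA as well as on ribosomal and transfer RNA, and has been linked to the stability and translation of transcripts.

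The lists differ greatly in length, which bears on every count below. They held 12157, 12119 and 3105 peaks in NAT10 overexpression replicates 1, 2 and 3, against 4324, 19261 and 10838 peaks in vector replicates 1, 2 and 3. The lists hold no read counts, so their depth is unknown, and a gene's transcript level and its degree of acetylation cannot be told apart from the number of its peaks. A false discovery rate of 29.28% or higher stood beside every peak of the lists. NAT10 itself, the check of the overexpression, carried 14, 14 and 15 peaks in overexpression lists, against 1, 2 and 2 in vector lists, so the lists match their labels on this gene. Of 10 keratinocyte marker genes, 9 carried a peak in some list, against 2 of 9 fibroblast, 3 of 7 melanocyte, 3 of 6 endothelial and 1 of 7 immune markers.

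Together the members carried 35, 50 and 5 peaks in overexpression lists, against 15, 71 and 28 peaks in vector lists, or 30 ± 22.9 against 38 ± 29.3 (SD, n = 3 each). The groups overlapped, with the highest number in vector replicate 2, the longest list, and the lowest in overexpression replicate 3, the shortest. As a share of each list, member peaks made up 0.288%, 0.413% and 0.161% in overexpression lists, against 0.347%, 0.369% and 0.258% in vector lists. The group means were 0.287 ± 0.126% against 0.325 ± 0.0584% (SD, n = 3 each), a difference of -0.0375 percentage points that is smaller than either SD. Its direction turned without overexpression replicate 3, to 0.0256, without that list and vector replicate 2 together, to 0.0476, and with every list reduced to its 3105 best peaks by score, as many as the shortest holds, to 0.107. The widest 95% Wilson interval ran from 0.210% to 0.572%, in vector replicate 1, and every list's interval overlapped that one. These intervals cover counting error only.

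**Figure D1:**
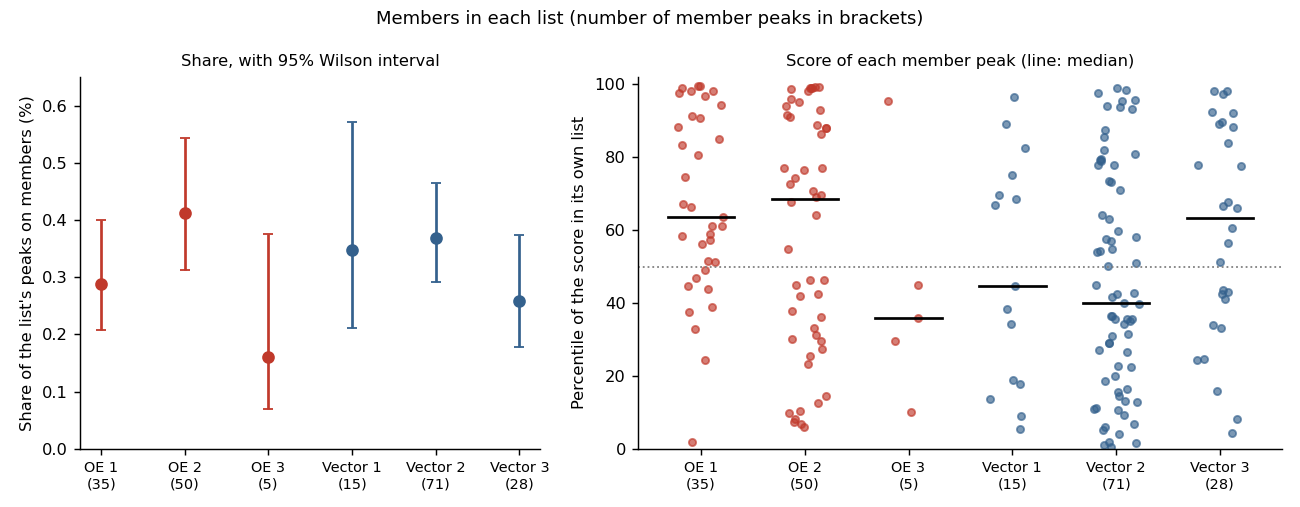
Left, the share of each list's peaks that lie on the 9 genes, in percent, with its 95% Wilson interval. Right, the percentile of the score of each peak on these genes among all peaks of its own list, with the median as a line; the numbers of member peaks, 35, 50 and 5 in overexpression (OE) lists and 15, 71 and 28 in vector lists, stand in brackets. The medians of the score percentile spread over 35.9 to 68.4 in OE lists and over 39.9 to 63.3 in vector lists.

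No member's number of peaks separated the groups. Over all 10870 genes with a peak, 0.386% had more peaks in every overexpression list than in every vector list and 1.39% had fewer, while the members numbered 0 of 8 in each direction. By presence alone, 0.267% of genes carried a peak in all 3 overexpression lists and no vector list and 1.09% the reverse, with 0 members in each. Each gene's difference was tested by exact permutation, two-sided, of the 20 ways to split 6 lists, which can give no p below 0.1, and adjusted over all genes. This design cannot pass the threshold of 0.05: the count of genes under it was 0 before and after adjustment, by the permutation test and by Fisher's exact test of presence. The mean number of peaks was higher in overexpression lists for 3 members (30.7% of all genes) and lower for 5 (55.2% of all genes), with a median difference of -0.5 peaks over the members and -0.333 over all genes.

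Most of these genes carried a peak in most lists. At any position, a peak in at least 5 of 6 lists was found on 7 of the 8 members, against 20.5% of all genes with a peak. At least 5 peaks in 1 list were found on 7 of 8, against 11.4% of all genes. These counts are by gene and not by position. The members also had many peaks, with totals from percentile 84.7 (ITGA6) to 99.6 (DST) of all genes. COL7A1 and PLEC carried a peak in all 6 lists, as did 6.23% of all genes. COL17A1, DST, ITGA6 and LAMB3 carried one in every list but overexpression replicate 3, the shortest, as did 9.96% of all genes.

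**Figure D2:**
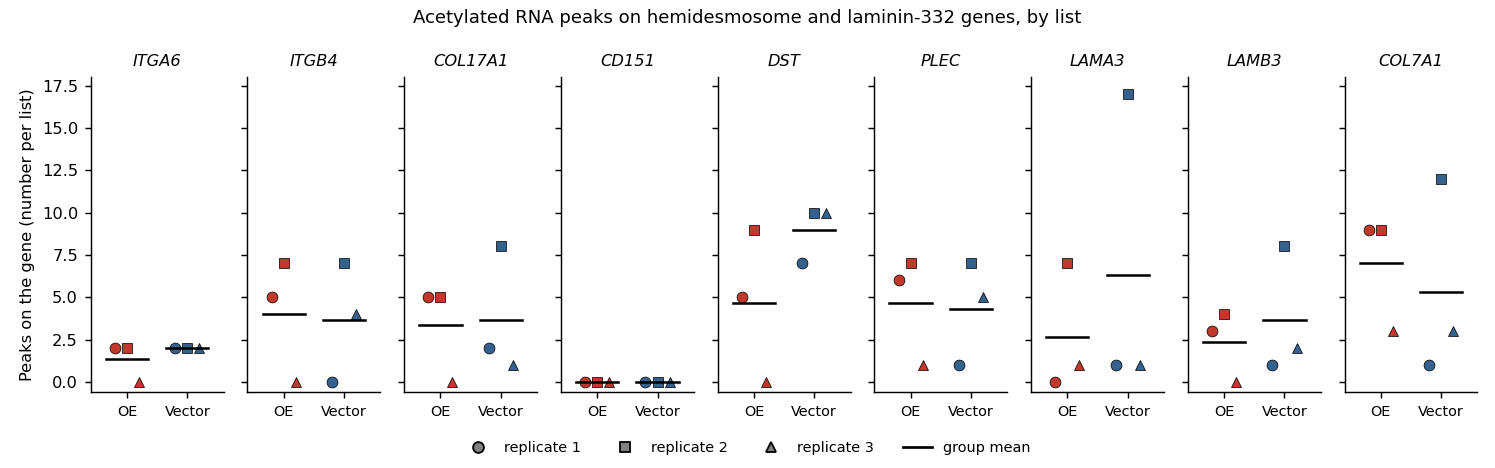
Number of peaks on each gene in each list, with OE (NAT10 overexpression) left of the empty vector; symbols mark the replicate and the black line is the group mean of 3 lists. Values overlap between groups for all 8 genes with a peak, CD151 stays at 0, and LAMA3 in vector replicate 2 reaches 17.

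The receptor of the hemidesmosome is the integrin made of the α6 chain, from ITGA6, and the β4 chain, from ITGB4. ITGA6 (gene identifier 3655, chromosome 2, 172427336 to 172506459, GRCh38) carried 2, 2 and 0 peaks in overexpression lists, against 2, 2 and 2 in vector lists (difference -0.667, exact permutation p = 1). Apart from overexpression replicate 3, the number did not vary, and the same 2 positions with the same ends accounted for all 10 peaks. One of them, from 172427555 to 172427970, spans a transcription start. The RefSeq promoter window around that start (GRCh38.p14, chr2:172427336-172427635, plus strand) is shown because the peak of 5 lists begins inside it, with the bases inside the peak in capitals.
ITGA6 promoter window: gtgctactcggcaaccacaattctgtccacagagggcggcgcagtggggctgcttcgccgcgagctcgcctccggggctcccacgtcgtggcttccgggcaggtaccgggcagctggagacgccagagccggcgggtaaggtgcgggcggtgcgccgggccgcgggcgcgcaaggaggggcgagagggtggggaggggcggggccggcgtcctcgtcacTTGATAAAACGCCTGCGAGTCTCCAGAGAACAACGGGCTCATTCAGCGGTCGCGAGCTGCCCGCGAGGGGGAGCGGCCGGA
Of the window's 300 bases, 81 lie inside the peak. Guanine and cytosine make up 72% of the window and 64.2% of the capitals, against a median of 58.7% over 35116 RefSeq windows of the same length.

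The peak at this ITGA6 start had a score of 1584.20 and 1793.62 in overexpression replicates 1 and 2, against 75.30, 300.69 and 1074.12 in vector lists. The score is 10 times the negative log10 of a p-value given by the authors, and it grows with depth as well as with enrichment, so it is read within its own list: the peak stood at percentile 98.2 and 99.0 in those overexpression lists, against 34.3, 73.3 and 97.4 in vector lists. Its fold of IP over background, also the authors' value, was 8.58 and 6.72 in overexpression lists, against 5.47, 4.67 and 11.60 in vector lists, and these overlap. The other ITGA6 peak, from 172467481 to 172467560, is 80 bases long and lies inside the gene. It stood at percentile 88.3 and 98.8 by score in overexpression replicates 1 and 2, against 96.5, 98.6 and 98.1 in vector lists. Of the 10 ITGA6 peaks, 7 were in the top 10% of their list by score, and the median percentile was 97.8, the highest of the 8 genes.

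ITGB4, whose chain has a long cytoplasmic tail that binds the plakins (gene identifier 3691, chromosome 17, 75721459 to 75757818), carried 5, 7 and 0 peaks in overexpression lists, against 0, 7 and 4 in vector lists. The difference was 0.333 (exact permutation p = 1), and each group had a list with none: overexpression replicate 3 and vector replicate 1, which are the shortest lists. Its 23 peaks lay at 11 positions, of which 8 were found in 2 or more lists, and all 8 were in both groups with the same ends. The position in most lists, 75736565 to 75736694, had a fold of 5.44 and 8.93 in overexpression replicates 1 and 2, against 7.63 and 7.97 in vector replicates 2 and 3. ITGB4 peaks had the lowest median fold percentile of the 8 genes, at 19.9, and 11 of the 23 had a fold under 4. Requiring a fold of at least 4 left 2, 3 and 0 peaks in overexpression lists, against 0, 4 and 3 in vector lists, and turned the difference to -0.667. It also turned with a score of at least 100, to -0.667, without overexpression replicate 1, to -0.167, without overexpression replicate 2, to -1.17, and without vector replicate 1, to -1.5.

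COL17A1 encodes the transmembrane collagen of the hemidesmosome, known as BP180, a target of autoantibodies in bullous pemphigoid (gene identifier 1308, chromosome 10, 104031286 to 104085880). It carried 5, 5 and 0 peaks in overexpression lists, against 2, 8 and 1 in vector lists (difference -0.333, exact permutation p = 1). The direction turned without vector replicate 2, to 1.83, and without overexpression replicate 3, to 1.33. It also turned with a score of at least 100, to 0.333, and with every list reduced to its 3105 best peaks by score, to 0.667. One position, 104056975 to 104057172, was held by 5 lists, with a fold of 12.60 and 17.59 in overexpression replicates 1 and 2, against 6.93, 12.60 and 10.60 in vector lists. It stood at percentile 99.0 and 99.3 by score in those overexpression lists, against 89.2, 95.7 and 98.1 in vector lists. The position 104033945 to 104034334 stood at percentile 99.1 in overexpression replicate 2, against 8.93 in vector replicate 1. The positions 104043501 to 104043581 and 104053031 to 104053135 were each found in overexpression replicates 1 and 2 and in no vector list. Positions held by 2 or more overexpression lists and no vector list made up 2.48% of member positions, against 3.20% of those of all genes.

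CD151 encodes a tetraspanin that associates with laminin-binding integrins (gene identifier 977, chromosome 11, 832952 to 838831). It carried 0 peaks in all 6 lists, and no peak named for another gene lay within its span. A gene without a peak here may have had too few reads for one to be called, and the lists do not tell this from an absence of ac4C.

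Of the plakins, DST encodes BP230, which links keratin filaments to the hemidesmosome, and longer forms made in neurons and muscle. It spans 496.835 kb (gene identifier 667, chromosome 6, 56457996 to 56954830) and had 41 peaks, the most of the members. It carried 5, 9 and 0 peaks in overexpression lists, against 7, 10 and 10 in vector lists, or 4.67 ± 4.51 against 9 ± 1.73 (SD, n = 3 each). The difference of -4.33 was the widest of the members and had an exact permutation p of 0.2, or 1 after adjustment over all genes. The groups overlapped at overexpression replicate 2, whose 9 peaks exceed the 7 of vector replicate 1. Without overexpression replicate 2 every overexpression list was below every vector list, as for 3.74% of all genes, and the same held without vector replicate 1, as for 8.51% of all genes.

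DST peaks ranked low by score, with a median percentile of 33.3 and 2 of 41 in the top 10% of their list. When every list was reduced to its 3105 best peaks by score, DST kept 0, 0 and 0 peaks in overexpression lists, against 4, 2 and 2 in vector lists. At this equal number the groups did not overlap (exact permutation p = 0.1, the smallest this design gives), as was the case in this direction for 1.42% of genes. The 26 DST positions included 5 that 2 or more vector lists held and no overexpression list did. No other member had such a position, and over all members they made up 4.13%, against 4.30% of the positions of all genes. Of the 5 on DST, 56494010 to 56494180 and 56843055 to 56843623 were in all 3 vector lists. That was true of 1.65% of member positions and of 0.575% of the positions of all genes. The second had a fold of 14.82, 45.50 and 12.03 in vector replicates 1, 2 and 3, and 45.50 was the highest fold of any member peak.

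The RefSeq promoter table lists 3 transcription starts for DST, and the last of them, at 56642889, lies 311.941 kb from the gene's 5′ end. Upstream of it, in sequence that only the longer forms contain, lay 0, 2 and 0 peaks in overexpression lists, against 3, 5 and 2 peaks in vector lists. Downstream lay 5, 7 and 0 peaks in overexpression lists, against 4, 5 and 8 in vector lists. The numbers overlapped between groups on both sides of that start. Where each form ends was not used here, so the downstream peaks cannot be assigned to BP230 or to a longer form.

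PLEC encodes plectin, which binds the β4 tail on one side and keratin filaments on the other (gene identifier 5339, chromosome 8, 143915153 to 143976745). It carried 6, 7 and 1 peaks in overexpression lists, against 1, 7 and 5 in vector lists (difference 0.333, exact permutation p = 1). The difference turned without overexpression replicate 1, to -0.333, without overexpression replicate 2, to -0.833, and without vector replicate 1, to -1.33. It was 0 with a fold of at least 4 and with every list reduced to 3105 peaks. Its 27 peaks fell on 12 positions, and 9 of these were in 2 or more lists and in both groups. The position 143975177 to 143975375, near the upper end of the span, was in 5 lists, with a fold of 22.68 and 14.38 in overexpression replicates 1 and 2, against 5.55, 20.80 and 13.92 in vector lists. The peak of overexpression replicate 3 lay at 143927410 to 143927766, a position that vector replicate 2 also held, with a fold of 6.16 against 8.68. Positions found in both groups were thus 9 of 12 on PLEC and 8 of 11 on ITGB4. They were 4 of 9 on LAMB3, 6 of 26 on DST, 6 of 27 on COL7A1, 3 of 13 on COL17A1 and 4 of 21 on LAMA3, against 24.96% of the positions of all genes.

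The ligand, laminin-332, is a trimer whose α3 chain comes from LAMA3 and whose β3 chain comes from LAMB3. LAMA3 (gene identifier 3909, chromosome 18, 23689453 to 23955066) carried 0, 7 and 1 peaks in overexpression lists, against 1, 17 and 1 in vector lists (difference -3.67, exact permutation p = 0.7). All but 3 of its 27 peaks came from the second replicates: without vector replicate 2 the difference turned to 1.67. Of its 21 positions, 14 were found in vector replicate 2 alone. The position in most lists lay at the gene's 5′ end, 23689443 to 23689977, with a fold of 9.38 and 9.85 in overexpression replicates 2 and 3, against 9.62 and 5.89 in vector replicates 1 and 3. It was absent from overexpression replicate 1 and from vector replicate 2, which held the most LAMA3 peaks of any list.

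The LAMA3 gene makes a long and a short transcript, and the short one, which starts inside the gene, encodes the α3A chain found in epidermal laminin-332. RefSeq's promoter table lists 1 start for LAMA3, at 23873020, which lies 183.567 kb into the gene. The window around it (GRCh38.p14, chr18:23872770-23873069, plus strand) is shown because it separates the peaks of the long transcript from the rest; capitals mark the bases from the start on.
LAMA3 promoter window: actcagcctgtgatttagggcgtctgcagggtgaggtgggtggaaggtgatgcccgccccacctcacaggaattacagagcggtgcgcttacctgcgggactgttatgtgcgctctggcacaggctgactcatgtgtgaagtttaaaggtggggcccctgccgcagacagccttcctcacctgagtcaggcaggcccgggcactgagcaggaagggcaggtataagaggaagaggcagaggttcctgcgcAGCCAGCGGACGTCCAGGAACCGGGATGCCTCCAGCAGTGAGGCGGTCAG
No peak of any list overlapped this window, in which guanine and cytosine make up 61.7% of the bases. Of the 27 LAMA3 peaks, 22 lay upstream of the start, on sequence that the short transcript does not contain. By list these were 0, 5 and 1 peaks upstream in overexpression lists, against 1, 14 and 1 in vector lists. Downstream lay 0, 2 and 0 peaks in overexpression lists, against 0, 3 and 0 in vector lists. In both groups the larger part of the LAMA3 peaks lay upstream, which is also the larger part of the span, 183.567 of 265.614 kb. In each group most of these upstream peaks came from replicate 2.

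**Figure D3:**
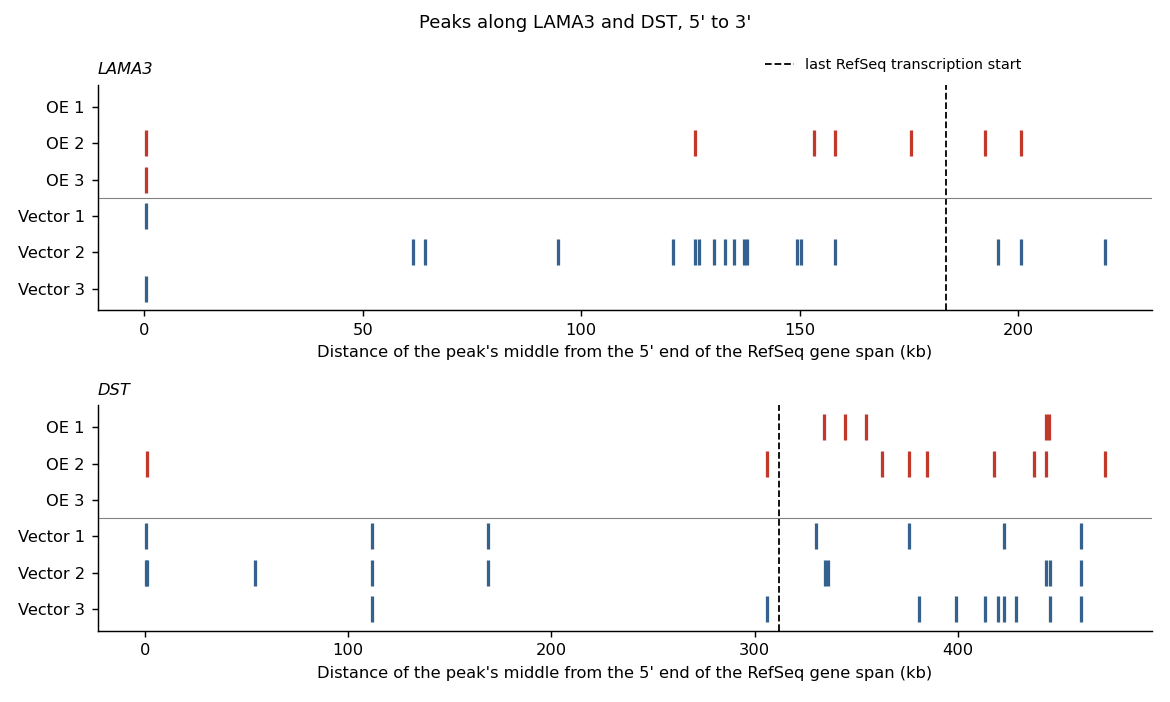
Middle of each peak on LAMA3 (top) and DST (bottom) in kb from the 5′ end of the RefSeq gene span, one row per list with OE above vector; the dashed line is the RefSeq transcription start nearest the 3′ end. Of 27 LAMA3 peaks 22 lie left of the line, and of 41 DST peaks 12 do.

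LAMB3 (gene identifier 3914, chromosome 1, 209614870 to 209652425) carried 3, 4 and 0 peaks in overexpression lists, against 1, 8 and 2 in vector lists (difference -1.33, exact permutation p = 0.8), and without vector replicate 2 the difference turned to 0.833. All 7 overexpression peaks lay at 4 positions that a vector list held too, while 5 positions were found in vector replicate 2 alone. Of the 7 overexpression peaks, 6 were in the top 10% of their list by score, against 1 of 11 in vector lists. Of those 11, 5 lay at the positions of vector replicate 2 alone. Over all members, 24 of 90 overexpression peaks and 14 of 114 vector peaks were in the top 10%. In overexpression lists these were 10 of 35, 13 of 50 and 1 of 5 peaks. In vector lists they were 1 of 15, 8 of 71 and 5 of 28. The median percentile by score was 95.1 in overexpression against 45.0 in vector lists on LAMB3. It was also higher in overexpression on COL17A1 (76.3 against 36.4), COL7A1 (70.7 against 35.3) and ITGA6 (98.5 against 97.0). It was lower on PLEC (64.0 against 77.8), DST (30.2 against 33.8), LAMA3 (39.2 against 41.7) and ITGB4 (63.8 against 64.3). Peaks of 1 list are not replicates, and these shares and medians were not tested. The position 209618452 to 209618798 stood at percentile 98.1 and 95.1 by score in overexpression replicates 1 and 2, against 79.5 and 92.5 in vector replicates 2 and 3. At 209625648 to 209626026 the percentiles were 97.6 and 96.0 in overexpression replicates 1 and 2, against 51.0 in vector replicate 2. At 3105 peaks for each list, LAMB3 kept 3, 4 and 0 in overexpression lists, against 1, 0 and 1 in vector lists, and the difference turned to 1.67.

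COL7A1 encodes type VII collagen, the substance of the anchoring fibrils (gene identifier 1294, chromosome 3, 48564073 to 48595329). With 37 peaks on a span of 31.257 kb it had the densest peaks of the members, 11.8 per 10 kb of gene span over all lists, against 0.825 on DST. The span includes introns, so this is not a density per length of transcript. It carried 9, 9 and 3 peaks in overexpression lists, against 1, 12 and 3 in vector lists, or 7 ± 3.46 against 5.33 ± 5.86 (SD, n = 3 each). The difference of 1.67 had an exact permutation p of 0.9, and the groups overlapped fully. Per 1000 peaks of the list, COL7A1 had 0.740, 0.743 and 0.966 peaks in overexpression lists, against 0.231, 0.623 and 0.277 in vector lists. On that scale the groups did not overlap, as was the case in this direction for 1.92% of genes. With every list reduced to 3105 peaks it kept 4, 6 and 3 in overexpression lists, against 1, 1 and 1 in vector lists, again without overlap (exact permutation p = 0.1, the smallest this design gives), as for 0.807% of genes in this direction. Overexpression replicate 3 is the list of 3105 peaks and lost none, and its 3 COL7A1 peaks stood at percentiles 45.0, 29.5 and 10.1 by score. With a score of at least 100, COL7A1 kept 8, 7 and 1 peaks in overexpression lists, against 1, 5 and 3 in vector lists, which overlap. Without vector replicate 1 the difference in the number of peaks turned to -0.5.

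Without vector replicate 2 and overexpression replicate 3 together, the longest and the shortest list, 5 members (COL17A1, COL7A1, ITGB4, LAMB3 and PLEC) had more peaks in every overexpression list than in every vector list, as did 15.5% of genes. None of the members had fewer, against 2.91% of genes. Each overexpression list left, of 12157 and 12119 peaks, was longer than each vector list left, of 4324 and 10838. In this setting the order of the counts therefore cannot be told apart from list length.

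The COL7A1 peak with the highest fold in its list began at 48581260 in overexpression replicates 1 and 3 and vector replicate 1, at 48585036 in overexpression replicate 2 and vector replicate 3, and at 48575339 in vector replicate 2. The position 48575339 to 48575539 was in 4 lists, with a fold of 31.09 and 20.82 in overexpression replicates 1 and 2, against 25.53 and 5.28 in vector replicates 2 and 3. At 48581260 to 48581340 the fold was 42.88 in overexpression replicate 1 and 5.01 in overexpression replicate 3, against 7.95 in vector replicate 1. At 48585036 to 48585116 it was 25.30 in overexpression replicate 2, against 10.44 in vector replicate 3. Of 27 COL7A1 positions, 20 were in 1 list, 6 were in both groups, and 48586074 to 48586246 was in overexpression replicates 1 and 2 and in no vector list. COL7A1 also held 3 of the 5 member peaks of overexpression replicate 3.

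**Figure D4:**
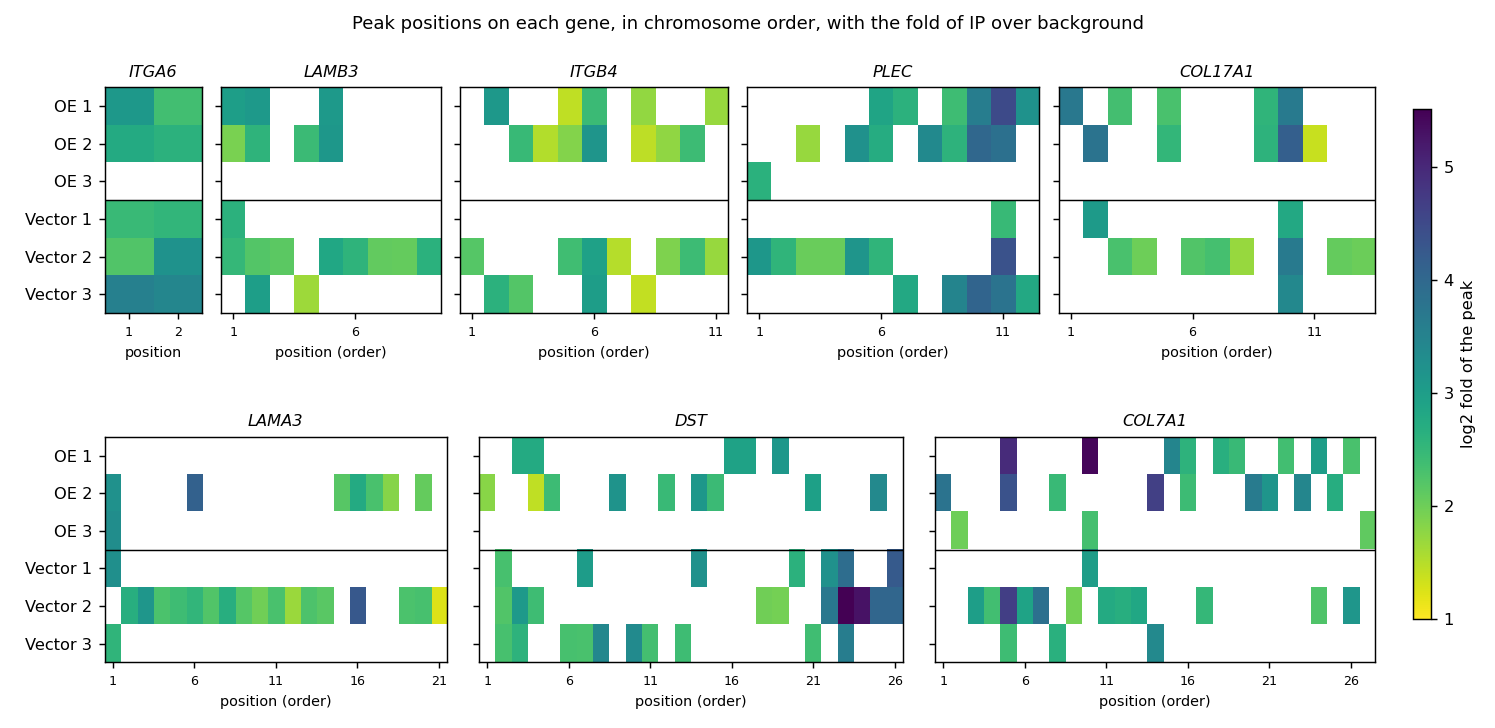
Positions with a peak on each gene (columns, numbered in chromosome order) in each list (rows, OE above vector), coloured by the log2 of the authors' fold; white means no peak. ITGA6, LAMB3, ITGB4 and PLEC share most or many columns between groups, LAMA3 has 14 columns filled in vector replicate 2 alone, and COL7A1 has 20 of 27 columns filled in 1 list.

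Counting intervals of different lists that overlap by at least 1 base as 1 position, the members had 121 positions. Of these, 50 were in 2 or more lists, or 41.3%, against 32.5% of the 38634 positions of all genes. Both groups held 42 positions, or 34.7%, against 9642 of the positions of all genes, or 24.96%. None was in all 6 lists, and 4 were in 5: both on ITGA6 and 1 each on COL17A1 and PLEC. Those 4 are 3.31% of the member positions, against 3.38% of all positions. Of the 50 recurring positions, 42 had the same start and end in every list that held them, or 84.0%, against 44.8% over all genes. Positions held by 2 or more lists of only 1 group numbered 3 for overexpression, on COL17A1 and COL7A1, which is 2.48% of the member positions, against 3.20% of all positions. For vector they numbered 5, all on DST, or 4.13%, against 4.30% of all positions. By list, 80.0%, 68.0% and 60.0% of member peaks in overexpression lists lay at a position that another list held, against 93.3%, 43.7% and 82.1% in vector lists. Over all genes the same shares were 60.0%, 62.8% and 53.5% in overexpression lists, against 85.5%, 41.6% and 68.6% in vector lists, so the low value of vector replicate 2 is shared with its other peaks.

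Peak lengths on both collagen genes were often multiples of 9 bases. Exons of the collagen triple-helix region are typically whole repeats of the amino acid triplet, hence multiples of 9 bases. Of the 40 distinct intervals on COL7A1 and COL17A1, 52.5% were a multiple of 9 bases long and 92.5% a multiple of 3. On the other members these shares were 14.3% and 30.8%, and over the 48695 distinct intervals of all genes 11.8% and 34.6%. Exon coordinates were not used here, so whether these intervals are exons was not tested. The lengths ran over 14 to 1005 bases on all members, with a median of 147 bases over the 204 peaks.

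By number of peaks in the 6 lists, some genes outside the group had a pattern close to a member's, with likeness measured as the sum of absolute differences over the 6 lists. MAFK, SNF8 and VPS4A had the same 6 numbers as ITGA6. UBN2 was nearest to LAMB3 at a distance of 1, MROH1 to PLEC at 2, TRAPPC9 to ITGB4 at 3, DOCK1 to LAMA3 at 4, ABCC1 to COL7A1 at 6, and CEP164 and INTS1 to DST at 9. For COL17A1, 7 genes tied at a distance of 3.

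Genes around the hemidesmosome gave a mixed picture, and none passed the adjusted test. Of 8 partners such as other integrin chains, basal keratins and tetraspanins, 7 carried a peak, with a higher mean in overexpression lists for 3 and a lower one for 3. Of 17 other basement membrane genes, 14 carried a peak, and the mean was higher in overexpression for 6 and lower for 8. Of 14 focal adhesion genes, 13 carried a peak, with 5 higher and 7 lower. Of 10 enzymes that process or shed these proteins, 9 carried a peak, with 3 higher and 5 lower. Over all genes with a peak, 30.7% had a higher and 55.2% a lower mean.

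All 5 of the other plakins carried a peak, with a higher mean in overexpression lists for 3 and a lower one for 2. Of the 5, 2 had more peaks in every overexpression list than in every vector list, and are named for that order. EVPL, which encodes envoplakin of the cornified envelope, carried 6, 5 and 5 peaks in overexpression lists, against 1, 2 and 4 in vector lists. EPPK1, which encodes epiplakin, a keratin-binding plakin, carried 9, 7 and 7 peaks in overexpression lists, against 4, 5 and 5 in vector lists. Both had an exact permutation p of 0.1, the smallest of the design, which any gene with such an order has. The adjusted p was 1, and 0.386% of all genes had such an order. In overexpression replicate 3, where DST had 0 peaks and PLEC had 1, EVPL had 5 and EPPK1 had 7. The remaining plakins were closer to the members in that list: DSP had 0 peaks, PPL had 0 and MACF1 had 2.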

How the data were processed

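Acetylated RNA peaks of HaCaT cells were analysed from 6 lists, 1 for each replicate, with groups and replicate numbers taken from the sample titles. Separate cultures are not stated in the labels, so p-values reflect how these samples spread, and that spread may be technical. The submitters' processing notes name cutadapt 1.9.3 and FastQC, HISAT2 2.0.4 and the build GRCh38. The authors called peaks separately for each replicate; the peaks are named for the caller MACS, with a version not given in the sources used here. Columns are, per the file headers, the length in bases, a score (10 times the negative log10 of the p-value), a false discovery rate and a linear fold ratio of the IP over background. The deposited false discovery rate carries no unit and was read as percent, since its values reach 100. The lowest deposited score was 50 and the lowest fold 2. Input libraries entered only through the authors' peak calls. Empty lines, 3 in vector replicate 2 and 2 in overexpression replicate 2, were skipped.

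Starts in the deposited lists count from 0 (start plus 1 was a RefSeq gene start for 353 distinct intervals, the start itself for 45), and coordinates are printed counting from 1. The lists give no strand, so positions were formed by overlap on a gene without it. Gene spans, starts and sequences are RefSeq's (GRCh38.p14); 1 peak each of ITGB4 and LAMA3 reached beyond the gene's span. Distinct intervals per gene and list were counted with Python 3.11.15, pandas 2.3.3 and SciPy 1.17.1, tested by exact permutation and Fisher's exact tests and Benjamini-Hochberg adjusted over 10870 genes. The test was tested on simulated data. Score and fold were ranked within a list. All members are named, with NAT10, up to 3 nearest genes for each member, and genes of the related lists whose numbers did not overlap. The members, the gene lists and the tests were chosen with earlier results of these data known. The deviations of same-numbered lists from their group means correlated at -0.108, 0.0177 and -0.0912 over genes, so the numbers were not taken to pair the lists.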

Additional observations from a re-analysis of the deposited data

How the results depend on the processing

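With 3 lists a group the tests cannot pass 0.05, and list length, which ran from 3105 to 19261 peaks, limits every count. Requiring a fold of at least 4 or a score of at least 100 turned ITGB4 to -0.667 peaks, and the score minimum turned COL17A1 to 0.333. Reducing every list to its 3105 best peaks by score gave 2 members without overlap between groups (COL7A1 above, DST below) in place of 0, a share difference of 0.107 percentage points in place of -0.0375, and turned COL17A1 to 0.667 and LAMB3 to 1.67. Peaks per 1000 gave 1 member without overlap (COL7A1), and a score of at least 100 gave 0. Leaving out 1 list gave 0 to 1 members without overlap, 1 (DST) without overexpression replicate 2 or vector replicate 1, and share differences from -0.10 to 0.0256. Differences in the number of peaks then ran from -1.67 to 1.83 on COL17A1, -0.5 to 5 on COL7A1, -6.5 to -2 on DST, -1 to 0 on ITGA6, -1.5 to 2.33 on ITGB4, -6.33 to 1.67 on LAMA3, -2.67 to 0.833 on LAMB3 and -1.33 to 2.17 on PLEC. COL17A1, LAMA3 and LAMB3 turned without vector replicate 2, and COL17A1 also without overexpression replicate 3 (1.33); ITGB4 turned without overexpression replicate 1 (-0.167), 2 (-1.17) or vector replicate 1 (-1.5), and PLEC without the same lists (-0.333, -0.833, -1.33). Without vector replicate 2 and overexpression replicate 3 together, the longest and the shortest list, 5 members did not overlap, COL17A1 was at 3.5, LAMB3 at 2 and LAMA3 at 2.5. Every overexpression list left was then longer than every vector list left, so these counts cannot be told apart from list length. Peaks of 1 gene and list with the same score and fold, which may be pieces of 1 called peak, were counted as 1 in a setting chosen after seeing the data, which changed no call. The share without both lists, also chosen after seeing the data, was 0.350% in overexpression and 0.303% in vector lists, and its difference turned to 0.0476 percentage points. Overlapping intervals merged and peaks taken by RefSeq span changed no call either. Recurring positions numbered 50, 45 with the same ends and 47 with 50% overlap. The causes were not tested. With the replicate block, an exact sign-flip test whose smallest p is 0.25, p was 0.25 for DST, 0.5 for LAMA3, 0.75 for LAMB3 and 1 for the other members, and the differences were as without it; no call changed. DST was lower and ITGA6 lower or equal in overexpression lists in every setting run. These settings reuse the same 6 lists, so they are not independent support. The ITGA6 difference was 0 without overexpression replicate 3, the shortest list. In the main setting 55.2% of all genes had a lower mean in overexpression lists, and how many stayed lower in every setting was not counted.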
